A study of Mus musculus with 5 samples.

Results

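The genes described here are *Nfe2l2*, which encodes the transcription factor NRF2, *Keap1*, which encodes its inhibitor, and 8 of the best known genes under NRF2 control, *Nqo1*, *Hmox1*, *Gclc*, *Gclm*, *Txnrd1*, *Srxn1*, *Slc7a11* and *G6pdx*. They were taken by gene symbol under a rule that used no measured value, although earlier results of these data were known at the choice. They are 10 of the 24421 genes with a row in the count tables. RNAseq libraries, 1 for each mouse, came from flash frozen renal cortex. They were made from wildtype mice 9055 and 9056 (n = 2) and from *Fnip1* null mice 8637, 9210 and 9121 (n = 3), to compare mRNA levels with and without *Fnip1*. *Fnip1* encodes a partner of Folliculin, the protein lost in Birt-Hogg-Dube' syndrome. The *Fnip1* null mice are *Fnip1*-/- and descend from ENU mutagenesis, so the loss is constitutive and not limited to the kidney. The control mice are *Fnip1*+/+ by their labels, although the study's text also calls them *Fnip1*+/-. Both groups are on the C57BL6J strain and none is labelled as treated. Age and sex of single mice were not given in the labels.

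NRF2 is made continuously and, under basal conditions, is bound by KEAP1, which delivers it to a CUL3 ubiquitin ligase for degradation. Oxidants and electrophiles modify cysteines of KEAP1, after which NRF2 accumulates, pairs with a small MAF protein and binds antioxidant response elements near its target genes. The targets make glutathione, regenerate reduced thioredoxin, supply NADPH, reduce quinones and degrade heme. In the kidney this program is best known from tubular epithelium, above all the proximal tubule, which is rich in mitochondria and exposed to filtered toxins.

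The promoter sequences below show the antioxidant response element core, TGACNNNGC, in members of this group. Promoter windows were RefSeq sequences on GRCm38.p6, from 250 bases before to 50 bases after a transcription start, and 8 of the 10 members had one. The core, on either strand, was in a window of *Nfe2l2*, *Gclm*, *Txnrd1*, *Srxn1* and *G6pdx*, and in 14.0% of all 27025 genes with a window. In *Srxn1* a second motif, TGANTCAGC, which overlaps the first where its N is a C, was searched after that sequence had been read, and it was in 1.37% of all genes with a window. The windows of *Keap1*, *Nqo1* and *Slc7a11* held neither motif. The stretches printed are the 150 bases before the start, 5′ to 3′ on the strand of the gene, with the matched bases in capitals. They lie at chr3:122245407-122245556 for *Gclm* (plus strand), chr2:152105374-152105523 for *Srxn1* (plus strand), chr10:82859056-82859205 for *Txnrd1* (plus strand, before 1 of its 3 annotated starts) and chrX:74428881-74429030 for *G6pdx* (minus strand).
*Gclm*: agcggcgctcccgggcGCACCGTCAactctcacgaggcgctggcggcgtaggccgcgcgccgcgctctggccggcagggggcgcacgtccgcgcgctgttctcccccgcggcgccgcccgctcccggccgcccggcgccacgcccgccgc
*Srxn1*: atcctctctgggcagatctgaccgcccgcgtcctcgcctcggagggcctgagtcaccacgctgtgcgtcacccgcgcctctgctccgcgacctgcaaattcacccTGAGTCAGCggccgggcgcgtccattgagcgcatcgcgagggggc
*Txnrd1*: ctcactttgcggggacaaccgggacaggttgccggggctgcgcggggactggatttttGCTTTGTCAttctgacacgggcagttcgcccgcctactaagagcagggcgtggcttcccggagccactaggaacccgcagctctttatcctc
*G6pdx*: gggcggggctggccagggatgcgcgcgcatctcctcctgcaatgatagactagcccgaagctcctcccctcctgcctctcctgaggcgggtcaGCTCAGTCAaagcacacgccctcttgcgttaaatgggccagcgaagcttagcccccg
The match began 134 bases before the start in *Gclm*, 92 in *Txnrd1* and 57 in *G6pdx*, each on the opposite strand, so that the capitals there read as the reverse complement of the core. In *Srxn1* the capitals are the second motif, 45 bases before the start on the same strand, and a match to the core began 29 bases after the start. A match of letters describes the sequence only. Binding of NRF2 was not measured.

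Between 15799114 and 19132145 reads were counted on genes per mouse, so that 3 counts corresponded to between 0.158 and 0.186 CPM, which are counts relative to a library size corrected by TMM. *Fnip1* was at 51.8 and 48.7 CPM in the wildtype mice 9055 and 9056, and at 21.0, 16.9 and 16.0 CPM in the null mice 8637, 9210 and 9121 (log2 fold change -1.48, SE 0.138, adjusted p = 0.0330). Null mouse 9121 stood apart from the other mice, with *Xist* at 314 CPM and the Y-linked *Ddx3y*, *Kdm5d* and *Uty* at 0, the pattern of a female. The other 4 mice had *Xist* between 0.172 and 1.41 CPM and *Ddx3y* between 42.8 and 52.2 CPM, the pattern of males. By these transcripts the null group mixed the sexes, while the wildtype group was male. The part of sex in the differences between the groups was not tested. Null mouse 8637 was the null mouse with the profile most like the wildtype mice, with a correlation across genes of 0.988 with mouse 9055. Genes with under 10 counts in 3 or more mice were not tested. The threshold for differential expression was 2-fold at the 5% FDR in edgeR's quasi-likelihood test, and adjusted p-values are from that test unless another is named. Values are for whole cortex, where fewer cells of a type and less RNA per cell cannot be told apart.

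Most target genes were lower in *Fnip1* null than in wildtype kidneys, with the largest differences in *Gclm* and *Gclc*, while *Nfe2l2* and *Srxn1* were higher and *Keap1* and *G6pdx* differed little. Of the 9 members that passed the filter on low counts, 7 were lower and 2 higher in the null mean, and the median log2 fold change was -0.34 against 0.0035 over all 13874 genes tested. Scaling by library size alone moved the median of all genes to 0.17 and that of the members to -0.18, with 5 members lower and 4 higher. None passed the 5% FDR or the full definition of differential expression in the quasi-likelihood test, which called 0.678% and 0.526% of all genes. The lowest adjusted p was 0.0593, that of *Gclm*. It passed the 5% FDR where libraries were scaled by size alone (log2 fold change -0.76, adjusted p = 0.0494), as did 112 of all genes. At an unadjusted p under 0.05 there were 5 members, 4 lower and 1 higher, against 25.1% of all genes. By edgeR's exact test, which called 9.77% of all genes at the 5% FDR, 2 of the 9 members passed, *Gclc* and *Gclm*. The same 2 passed by the likelihood ratio test and by DESeq2, which called 1472 and 1432 of all 13874 genes. In 4 members every null mouse was below both wildtype mice, where 23.0% of all genes did the same, and in 2 members every null mouse was above both, where 22.9% of all genes did.

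**Figure D1:**
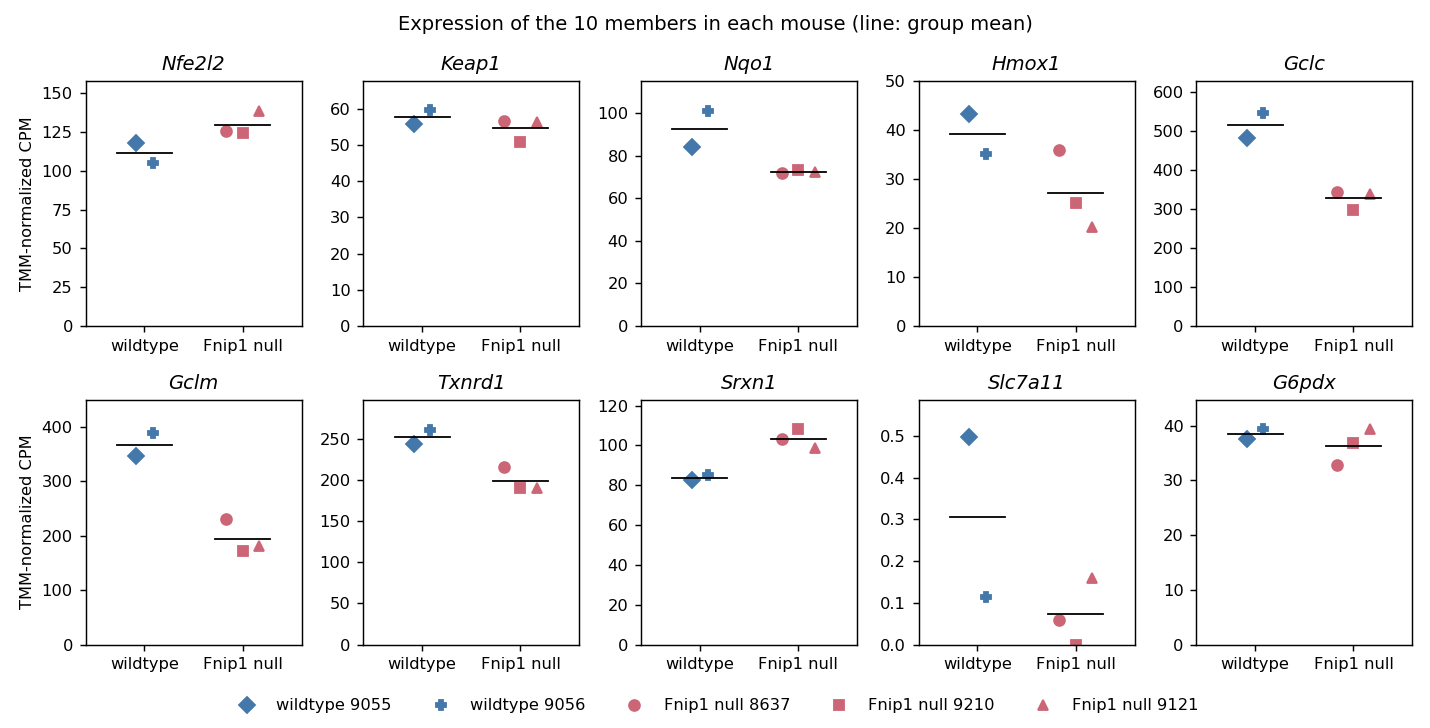
TMM-normalized CPM (vertical axes, from 0) of the 10 members in each of the 2 wildtype mice (blue) and 3 Fnip1 null mice (red), with a line at each group mean. The null mice lie below both wildtype mice for Gclc, Gclm, Nqo1 and Txnrd1 and above both for Nfe2l2 and Srxn1, and Slc7a11 is near the detection limit in every mouse.

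The regulators come first. *Nfe2l2* (chr2:75675513-75704641, minus strand, GRCm38) was at 118 and 105 CPM in wildtype mice 9055 and 9056, and at 126, 124 and 139 CPM in null mice 8637, 9210 and 9121. All 3 null mice were above both wildtype mice, but the mean of 130 ± 7.79 CPM (SD, n = 3) against 111 ± 8.99 CPM (SD, n = 2) gave a log2 fold change of 0.22 (SE 0.0983) that did not pass the test (adjusted p = 0.224). *Keap1* (chr9:21229730-21239361, minus strand) was at 55.9 and 59.7 CPM in the wildtype and at 56.6, 50.8 and 56.3 CPM in the null mice. The groups overlapped, and the log2 fold change was -0.082 (SE 0.0940, adjusted p = 0.614), or 0.082 where libraries were scaled by size alone. NRF2 is controlled largely through the stability of the protein, which read counts do not measure.

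*Gclc* and *Gclm* encode the catalytic and the modifier subunit of glutamate-cysteine ligase, which carries out the rate-limiting step of glutathione synthesis, and both were lower in every null mouse. *Gclm* (chr3:122245557-122270732, plus strand) was at 345 and 389 CPM in the wildtype mice and at 230, 171 and 181 CPM in null mice 8637, 9210 and 9121. No null mouse reached the lower wildtype mouse, and the null mean of 194 ± 31.2 CPM (SD, n = 3) was 52.9% of the wildtype mean of 367 ± 30.7 CPM (SD, n = 2). The log2 fold change was -0.92 (SE 0.148), just short of 2-fold, with an adjusted p of 0.0593 in the quasi-likelihood test and of 0.000184 in the exact test.

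*Gclc* (chr9:77754535-77794485, plus strand) was at 483 and 546 CPM in the wildtype mice and at 345, 297 and 340 CPM in the null mice. The 3 null mice were close together and all below the wildtype mice, at a mean of 327 ± 26.1 CPM (SD, n = 3) against 515 ± 44.3 CPM (SD, n = 2). The log2 fold change was -0.65 (SE 0.118), with an adjusted p of 0.0655 in the quasi-likelihood test and of 0.00562 in the exact test.

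*Slc7a11* (chr3:49892526-50443614, minus strand) encodes xCT, the exchanger that imports cystine for glutathione synthesis. It had 8 and 2 counts in the wildtype mice and 1, 0 and 3 counts in null mice 8637, 9210 and 9121. The 0 in mouse 9210 allows up to 3 counts, or 0.178 CPM. The gene was left out of the test by the filter, and no difference was detectable at this depth. *Slc3a2*, which encodes the heavy chain that xCT shares with other amino acid transporters and was named after its values had been seen, was at 200 and 189 CPM in the wildtype and at 277, 345 and 330 CPM in the null mice (log2 fold change 0.71, SE 0.124, adjusted p = 0.0644, exact test 0.00308).

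*Txnrd1* and *Srxn1* act in the thioredoxin system and lay on opposite sides of the wildtype mice. *Txnrd1* (chr10:82833951-82897712, plus strand), the cytosolic thioredoxin reductase, was at 243 and 261 CPM in the wildtype mice and at 216, 190 and 191 CPM in the null mice. Every null mouse was below both wildtype mice, with mouse 8637 nearest to them, and the log2 fold change was -0.34 (SE 0.101, adjusted p = 0.120). *Srxn1* (chr2:152105516-152111376, plus strand), sulfiredoxin, which repairs overoxidized peroxiredoxins, was at 82.6 and 85.0 CPM in the wildtype mice and at 103, 108 and 98.5 CPM in the null mice. It was the only NRF2 target of the group with every null mouse above both wildtype mice, with a log2 fold change of 0.30 (SE 0.0849, adjusted p = 0.113).

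*Nqo1* (chr8:107388225-107403206, minus strand), the quinone reductase most often used as a readout of NRF2, was at 84.2 and 101 CPM in the wildtype mice. In null mice 8637, 9210 and 9121 it was at 72.1, 73.2 and 72.3 CPM. The null mice were almost level with each other and below both wildtype mice, at 78.4% of the wildtype mean (log2 fold change -0.35, SE 0.101, adjusted p = 0.116). *Hmox1* (chr8:75093621-75100589, plus strand), the inducible heme oxygenase, was at 43.4 and 35.2 CPM in the wildtype mice and at 35.9, 25.1 and 20.3 CPM in the null mice. Null mouse 8637 lay just above wildtype mouse 9056, so the groups overlapped, and the log2 fold change was -0.54 (SE 0.242, adjusted p = 0.227).

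*G6pdx* (chrX:74409483-74429194, minus strand) encodes glucose-6-phosphate dehydrogenase, the entry to the pentose phosphate pathway and a main source of NADPH. It was at 37.5 and 39.5 CPM in the wildtype and at 32.9, 36.8 and 39.5 CPM in the null mice. The groups overlapped, with a log2 fold change of -0.081 (SE 0.111, adjusted p = 0.677), or 0.087 where libraries were scaled by size alone. It shares 418 exon bases with *Ikbkg* on the opposite strand, and the library kit did not mark strand, so reads there cannot be assigned to 1 of both genes. *G6pd2*, its retrotransposed copy, had 0 counts in every mouse, which allows up to 3 counts in each.

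Leaving out single mice moved which members passed. Without null mouse 8637, *Hmox1*, *Gclc*, *Gclm* and *Txnrd1* passed the 5% FDR of the quasi-likelihood test, 4 of 9 members where 20.1% of all genes passed, and *Gclm* also passed the 2-fold limit (log2 fold change -1.06, adjusted p = 0.00547). Their adjusted p-values were 0.0251 for *Hmox1* (log2 fold change -0.79), 0.0148 for *Gclc* and 0.0258 for *Txnrd1*. Null mouse 9121 differs from the other mice in *Xist* and Y-linked transcripts. Without it no member passed the quasi-likelihood test, which called 191 of all 13980 genes tested at the 5% FDR. *Gclc* and *Gclm* still passed the exact test, which called 1164 of these genes. The log2 fold changes were then -0.87 for *Gclm* and -0.68 for *Gclc*, near those with all mice. The call of *Gclc* by the exact test ended without wildtype mouse 9055 (adjusted p = 0.0786), wildtype mouse 9056 (0.498) or null mouse 9210 (0.160). That of *Gclm* ended without wildtype mouse 9056 (adjusted p = 0.169) and held without mouse 9055 (0.0167) or 9210 (0.0269). Without mouse 9056 the median log2 fold change of the members was -0.22, with *Nqo1* at -0.22 and *Nfe2l2* at 0.14. The median log2 ratio of the 9 members to the wildtype mean was -0.22 in mouse 8637, -0.34 in mouse 9210 and -0.36 in mouse 9121.

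**Figure D2:**
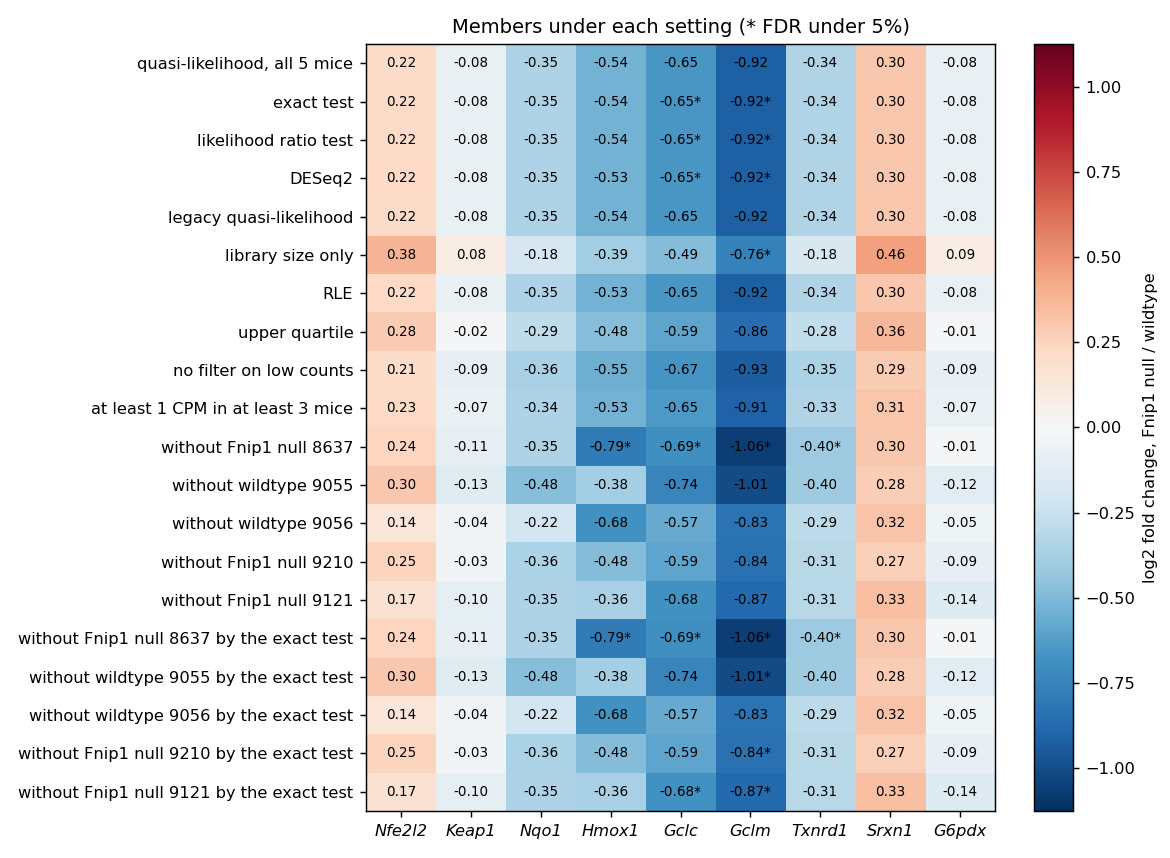
Log2 fold change (Fnip1 null against wildtype, numbers and colour) of the 9 members tested in rows of other tests, normalizations, filters and left-out mice, with an asterisk at an FDR under 5%. Gclm and Gclc are negative in every row, and Keap1 and G6pdx turn positive only where libraries are scaled by size alone.

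The order of the members by level was compared per kb of exon, since longer transcripts collect more reads. Over the 5 mice *Gclc* had the highest level, at 107 CPM per kb, followed by *Nqo1* at 51.9, *Gclm* at 41.9, *Srxn1* at 33.9, *Nfe2l2* at 32.2 and *Txnrd1* at 31.1 CPM per kb. *Hmox1* was at 18.3, *G6pdx* at 12.1, *Keap1* at 11.9 and *Slc7a11* at 0.0119 CPM per kb. The ranges over mice did not overlap between *Gclc* and *Nqo1*, between *Txnrd1* and *Hmox1*, or between *Keap1* and *Slc7a11*, and overlapped between all other neighbours in this order. The order differed between the groups. In wildtype mice *Nqo1* at 59.6 and *Gclm* at 58.4 CPM per kb were followed by *Txnrd1* at 35.6, *Srxn1* at 29.7 and *Nfe2l2* at 29.3 CPM per kb. In null mice *Nqo1* at 46.7 CPM per kb was followed by *Srxn1* at 36.6, *Nfe2l2* at 34.1, *Gclm* at 30.9 and *Txnrd1* at 28.1 CPM per kb. *Gclc* came first and *Hmox1*, *G6pdx*, *Keap1* and *Slc7a11* last in both groups. The catalytic subunit of glutamate-cysteine ligase was thus above the modifier subunit in CPM per kb in all 5 mice, and the null mice spread most, relative to their mean, in *Hmox1* among the 9 members tested, with an SD of 7.99 CPM at a mean of 27.1 CPM.

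**Figure D3:**
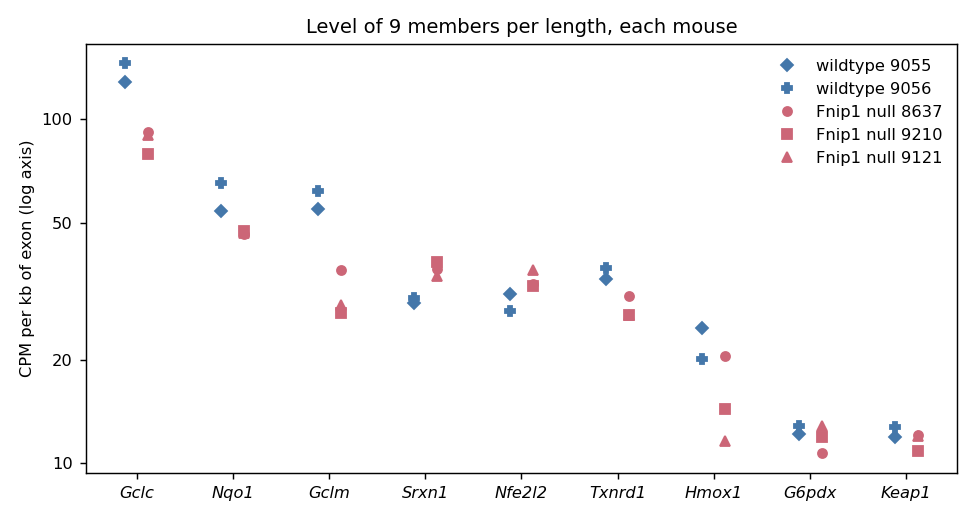
CPM per kb of exon (vertical log axis) of 9 members in each wildtype (blue) and Fnip1 null mouse (red), ordered by the mean over the 5 mice. Gclc lies above every other member in every mouse, and Slc7a11, at 0.0119 CPM per kb on average, is left out because 1 mouse has 0 counts.

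The other genes of the pathway were read from 8 lists with 127 genes in the files, of which 117 were tested. The null mean was the higher for 53 of these and the lower for 64, the median log2 fold change was -0.11, and 1 gene passed the quasi-likelihood test at the 5% FDR. At an unadjusted p under 0.05 there were 52, against 25.1% of all genes. By the exact test 14 were higher and 8 lower at the 5% FDR, which 9.77% of all genes passed. Without mouse 8637 the quasi-likelihood test called 47 of them, against 20.1% of all genes. Without mouse 9121 it called 4 of them, and 191 of all 13980 genes tested. Where libraries were scaled by size alone the median of all pathway genes was 0.052, that of the heme and iron genes 0.063 and that of the thioredoxin and peroxiredoxin genes 0.0013, while the other lists kept the sign of their median.

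Other enzymes that make, cleave or use glutathione lay in both directions. Of 15 glutathione enzymes tested beside the members, 9 had a negative log2 fold change, with a median of -0.33. In every null mouse 7 were lower than in both wildtype mice, as were 23.0% of all genes. None passed the quasi-likelihood test, and 8 had an unadjusted p under 0.05, against 25.1% of all genes. By the exact test, which called 9.77% of all genes, 3 were lower and 1 higher. Without mouse 9121, 8 were negative and 7 positive, with a median of -0.20. *Ggct*, a gamma-glutamylcyclotransferase, was at 36.2 and 41.8 CPM in the wildtype mice and at 19.5, 11.8 and 13.4 CPM in the null mice (log2 fold change -1.39, SE 0.220, adjusted p = 0.0567, exact test 2.98e-06). *Ggt1*, the brush border enzyme that cleaves extracellular glutathione, was at 1379 and 1588 CPM in the wildtype and at 962, 631 and 616 CPM in the null mice (log2 fold change -1.01, SE 0.231, adjusted p = 0.0871, exact test 0.00303). Both were lower in all 3 null mice, and mouse 8637 was again the null mouse nearest to the wildtype mice. In the other direction, *Gpx7* was at 1.06 and 1.20 CPM in the wildtype and at 2.00, 2.79 and 2.48 CPM in the null mice (log2 fold change 1.10, SE 0.286, adjusted p = 0.103, exact test 0.0384). *Gpx8* overlapped between the groups (log2 fold change 0.55, SE 0.294, adjusted p = 0.288). *Gpx7* and *Gpx8* encode peroxidases of the endoplasmic reticulum.

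Proximal tubule markers also lay in both directions. Of the 10 markers, none at 0, 8 had a negative log2 fold change, with a median of -0.32, and none passed the quasi-likelihood test. At an unadjusted p under 0.05 there were 3 lower and 1 higher, against 25.1% of all genes. The exact test, which called 9.77% of all genes, called 1. In every null mouse 5 were below both wildtype mice, as were 23.0% of all genes. Above both were 2, as were 22.9% of all genes, namely the glucose transporter *Slc5a2* (log2 fold change 0.26) and the lactate transporter *Slc5a12* (0.63). The summed level of the 10 markers ran from 42913 to 47458 CPM in the wildtype and from 16123 to 28612 CPM in the null mice. Most of that difference was *Kap*, an androgen-responsive transcript, at 26754 and 29261 CPM in the wildtype and at 13588, 5428 and 4840 CPM in the null mice. By mouse, the median log2 ratio of the markers to the wildtype mean was -0.14 in mouse 8637, -0.43 in mouse 9210 and -0.44 in mouse 9121, so that mouse 8637 was the null mouse nearest to the wildtype mice here too. The part of proximal tubule content in the lower *Gclc*, *Gclm*, *Nqo1* and *Txnrd1* was not tested.

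**Figure D4:**
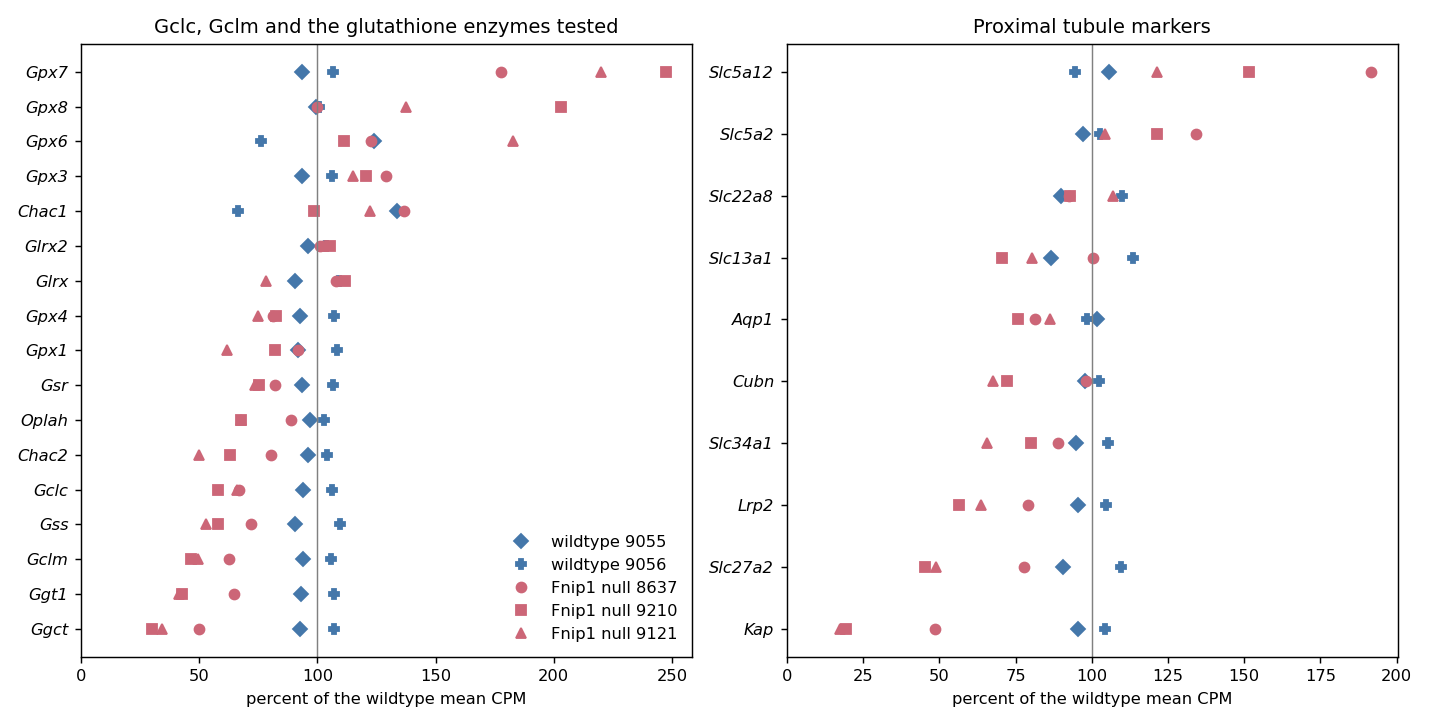
Level in each mouse as percent of the wildtype mean (horizontal axes, from 0) of Gclc, Gclm and the 15 other glutathione enzymes tested (left) and of 10 proximal tubule markers (right), wildtype in blue and Fnip1 null in red. Gclc, Gclm, Ggct and Ggt1 lie below both wildtype mice in every null mouse, and Kap is the proximal tubule marker with the lowest null values.

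Markers of other cell types differed in their sums as well, apart from thick limb and distal tubule and erythroid markers, whose sums overlapped. The summed levels of podocyte markers ran from 357 to 361 CPM in the wildtype and from 642 to 754 CPM in the null mice, those of tubular injury markers from 1045 to 1143 and from 2242 to 3148 CPM, and those of macrophage and leukocyte markers from 247 to 350 and from 360 to 841 CPM. Of 12 macrophage and leukocyte markers 11 were positive. The exception was *Csf1r*, at 72.4 and 68.4 CPM in the wildtype and at 38.2, 36.4 and 63.9 CPM in the null mice. Its log2 fold change was -0.61 (adjusted p = 0.193). *Cd74* was the largest part of the macrophage and leukocyte sum. It was at 197 and 120 CPM in the wildtype and at 214, 279 and 528 CPM in the null mice. Of 4 podocyte markers 3 passed the quasi-likelihood test at the 5% FDR, against 0.678% of all genes. Collecting duct markers ran from 384 to 395 CPM in the wildtype and from 502 to 690 CPM in the null mice. Of these, *Fxyd4* overlapped between the groups (log2 fold change -0.22, adjusted p = 0.665). Thick limb and distal tubule markers ran from 7513 to 8393 and from 7956 to 11517 CPM. Null mice 8637 and 9210 lay inside the wildtype range there. Adipocyte markers ran from 36.1 to 36.7 and from 54.3 to 357 CPM. In null mouse 8637 the adipocyte sum was mostly *Fabp4*, at 48.4 CPM, and the median log2 ratio of those markers to the wildtype mean was -0.61, against 4.35 in mouse 9210 and 3.31 in mouse 9121. The sum of the injury markers was mostly *Spp1*, osteopontin, at 794 and 813 CPM in the wildtype and at 1906, 2774 and 2636 CPM in the null mice. In 2 of the 5 injury markers tested every null mouse was above both wildtype mice, as in 22.9% of all genes. Neutrophil markers ran from 0.435 to 0.458 CPM in the wildtype and from 4.89 to 7.13 CPM in the null mice, with *Camp* at 0 in all. Erythroid markers, of which *Hbb-bt*, *Hbb-b2* and *Hba-a1* were at 0 in every mouse, overlapped between the groups, at 56.7 to 57.8 and 42.7 to 64.8 CPM. Their part in the members' values was not tested.

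Among the partners and regulators of NRF2, 13 of 16 genes had a negative log2 fold change, with a median of -0.18, or 9 of 16 with a median of -0.027 where libraries were scaled by size alone. None passed the quasi-likelihood or the exact test, and 6 had an unadjusted p under 0.05, against 25.1% of all genes. *Bach2*, a repressor that competes for MAF partners, was lower in every null mouse (log2 fold change -0.57, SE 0.185, adjusted p = 0.137). *Maff*, a small MAF protein, was above both wildtype mice in every null mouse but at a low level, between 2.12 and 4.13 CPM over all mice (log2 fold change 0.73, SE 0.231, adjusted p = 0.134). *Nfe2l1*, the NRF2 relative that controls proteasome genes, had a log2 fold change of 0.34 (SE 0.126, adjusted p = 0.165), and *Fbxw11*, a ubiquitin ligase subunit that also targets NRF2, one of -0.41 (SE 0.174, adjusted p = 0.207).

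The glutathione transferases, which couple glutathione to electrophiles, went in both directions. Of 19 tested, 13 had a positive log2 fold change, with a median of 0.17 (0.11 without mouse 9121), and none passed the quasi-likelihood test. There were 9 with an unadjusted p under 0.05, against 25.1% of all genes. By the exact test 4 were higher and 1 lower at the 5% FDR, which 9.77% of all genes passed. *Gstm1* was at 449 and 457 CPM in the wildtype mice and at 296, 268 and 316 CPM in the null mice (log2 fold change -0.63, SE 0.108, adjusted p = 0.0644, exact test 0.0056). *Gsta4*, which acts on the lipid peroxidation product 4-hydroxynonenal, was at 26.5 and 25.9 CPM in the wildtype and at 49.1, 87.7 and 150 CPM in the null mice (log2 fold change 1.87, SE 0.447, adjusted p = 0.0931, exact test 0.00198). *Gsta2* was at 52.5 and 73.0 CPM in the wildtype and at 97.5, 157 and 175 CPM in the null mice (log2 fold change 1.19, SE 0.276, adjusted p = 0.0899, exact test 0.00273). *Gsta* and *Gstm* genes are often listed together as NRF2 targets. The transferases named here were picked for the largest log2 fold changes in each direction. Their opposite directions follow from that choice and do not compare the *Gsta* with the *Gstm* genes. *Gstp2* was near the lower limit of the test (log2 fold change -1.01, SE 0.490, adjusted p = 0.252), and members of these families share sequence, and reads aligned to more than 1 place were left out by the counting.

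Of 17 other thioredoxin and peroxiredoxin genes 12 had a negative log2 fold change, with a median of -0.17, and none passed the quasi-likelihood test. At an unadjusted p under 0.05 there were 5, against 25.1% of all genes. By the exact test, which called 9.77% of all genes, 1 was higher. That gene was *Sesn1*, a sestrin (log2 fold change 0.60, SE 0.157, adjusted p = 0.104, exact test 0.0346). Its relative *Sesn2*, an NRF2 target, was lower in every null mouse (log2 fold change -0.48, SE 0.135, adjusted p = 0.114). *Txnip*, the inhibitor of thioredoxin, was higher in every null mouse (log2 fold change 0.57, SE 0.166, adjusted p = 0.117), and *Msrb1*, a methionine sulfoxide reductase, had a log2 fold change of -0.55 (SE 0.325, adjusted p = 0.329).

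In the NADPH supply, where *G6pdx* differed little, 6 of 10 further genes were higher in the null mean. The median log2 fold change was 0.03, and none passed the quasi-likelihood test. Of the 10, 5 had an unadjusted p under 0.05, against 25.1% of all genes. By the exact test, which called 9.77% of all genes, 1 was higher and 1 lower. These were the malic enzymes. Cytosolic *Me1*, an NRF2 target, was at 856 and 993 CPM in the wildtype and at 572, 374 and 282 CPM in the null mice (log2 fold change -1.17, SE 0.286, adjusted p = 0.0954, exact test 0.00504). Mitochondrial *Me2* was at 7.89 and 6.98 CPM in the wildtype and at 12.9, 16.2 and 17.7 CPM in the null mice (log2 fold change 1.07, SE 0.183, adjusted p = 0.0644, exact test 0.000299). *Pgd*, which follows *G6pdx* in the pentose phosphate pathway, was lower in every null mouse (log2 fold change -0.31, SE 0.0882, adjusted p = 0.114), and *Nnt* overlapped between the groups (log2 fold change 0.30, SE 0.308, adjusted p = 0.564).

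Heme and iron genes, the setting of *Hmox1*, differed little between the genotypes. Of 9 tested 5 had a negative log2 fold change, with a median of -0.10, and none passed the quasi-likelihood or the exact test or had an unadjusted p under 0.05. The largest differences were those of *Fth1*, the ferritin heavy chain (log2 fold change -0.36, SE 0.250, adjusted p = 0.401), *Fech*, ferrochelatase (-0.25, SE 0.121, adjusted p = 0.247), *Tfrc*, the transferrin receptor (0.30, SE 0.313, adjusted p = 0.578), and *Slc40a1*, ferroportin (0.31, SE 0.151, adjusted p = 0.256).

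The 1 pathway gene that passed the quasi-likelihood test was in the list of detoxification and efflux genes. *Aldh1a1*, an aldehyde dehydrogenase that makes retinoic acid, rose from 6.71 and 5.55 CPM in the wildtype mice to 31.7, 34.4 and 18.3 CPM in the null mice (log2 fold change 2.20, SE 0.305, adjusted p = 0.0482, exact test 2.29e-08). Without mouse 9055, 9056 or 9210 the quasi-likelihood test called 0 genes, *Aldh1a1* and *Fnip1* included, while the exact test called 428, 134 and 272 at the 5% FDR and 2-fold. Of the 27 genes tested in that list 16 had a positive log2 fold change, with a median of 0.29, or 14 with a median of 0.14 without mouse 9121. By the exact test, which called 9.77% of all genes, 7 were higher and 3 lower. The list held 16 genes with an unadjusted p under 0.05, against 25.1% of all genes. *Nqo1*, in the same functional class, was lower in every null mouse.

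The superoxide and catalase genes had a negative log2 fold change in 4 of 4, with a median of -0.49, and in 3 of 4 where libraries were scaled by size alone. None passed the quasi-likelihood or the exact test, and 3 had an unadjusted p under 0.05, against 25.1% of all genes. The log2 fold changes were -0.53 for extracellular *Sod3* (SE 0.169, adjusted p = 0.133), -0.49 for *Cat*, the peroxisomal catalase (SE 0.180, adjusted p = 0.166), -0.48 for cytosolic *Sod1* (SE 0.129, adjusted p = 0.104) and -0.11 for mitochondrial *Sod2* (SE 0.114, adjusted p = 0.557). Every null mouse was below both wildtype mice for the first 3 of these, as for 23.0% of all genes.

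**Figure D5:**
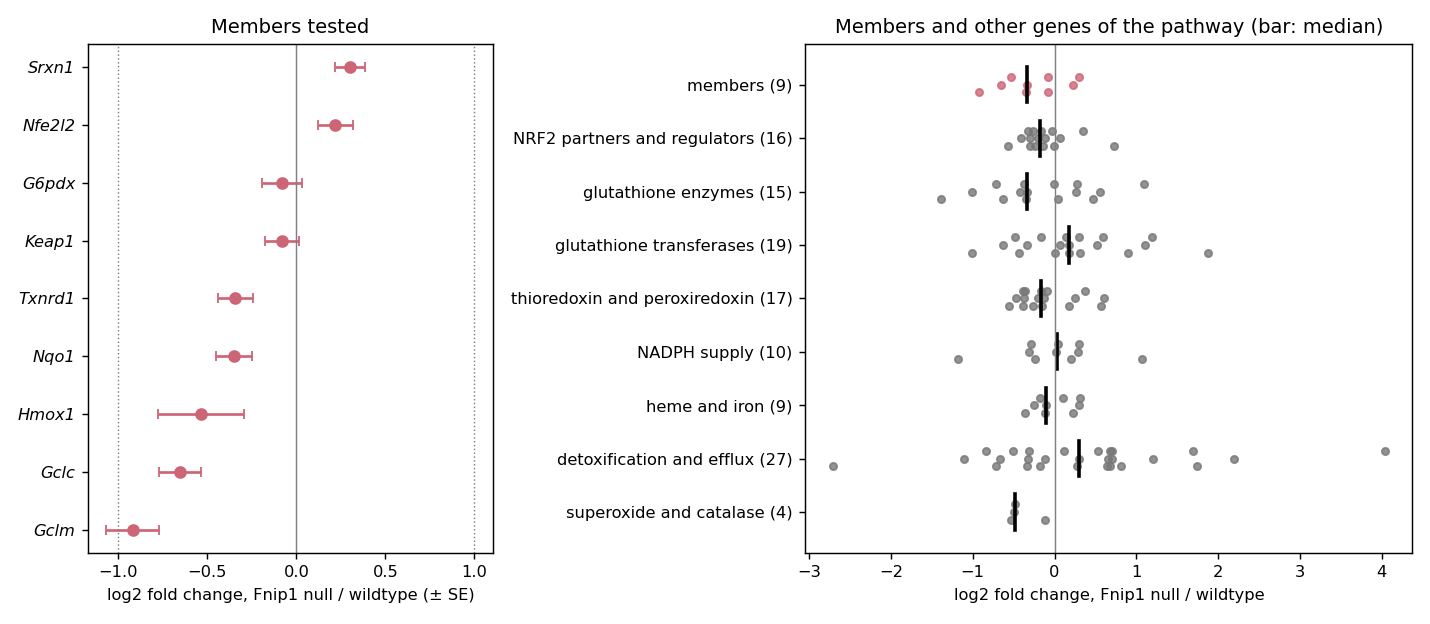
Log2 fold change (Fnip1 null against wildtype, horizontal axes) of the 9 members tested with their SE and dotted lines at 2-fold (left), and of the members and 8 lists of other pathway genes with a bar at each median and the number tested in brackets (right). The members centre on -0.34, the glutathione enzymes on -0.33, and the glutathione transferases on 0.17.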

How the data were processed

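Counts per gene symbol were deposited by the authors without normalization. Reads of low quality were filtered, the rest aligned to mm10 with TopHat2 2.1.0 and counted with HTSeq 0.6.1, per the submitters' processing notes and the study's methods. The TruSeq RNA kit does not mark strand, and the strand setting of the counting was not given in the sources used here. Rows that name no gene (9.91% to 10.8% of all counts had no feature, 28.3% to 31.4% were not unique and 0.741% to 0.803% were ambiguous) were left out. Counts were TMM-normalized and tested with edgeR 4.0.16 (R 4.3.3, limma 3.58.1) by its quasi-likelihood test with Benjamini-Hochberg adjustment over 13874 genes. Each SE was derived as the absolute log2 fold change divided by the square root of that test's F statistic. The test was checked on simulated data with changes larger than that of any member, so the check does not cover changes of their size. Alternatives were DESeq2 1.42.0, edgeR's likelihood ratio, exact and legacy quasi-likelihood tests, different scalings and filters, and fits without each mouse. Leaving out mice under the exact test was added after seeing the data. With 3 against 2 mice, the smallest p of a permutation test is 0.1, so none was used. Members and lists were chosen with earlier results of these data known. Within each list, the named genes are those past the 5% FDR, or otherwise the 2 largest positive and 2 largest negative log2 fold changes at 1 CPM or more. Positions and exon lengths are from GENCODE on GRCm38, matched by symbol.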

Additional observations from a re-analysis of the deposited data

How the results depend on the processing

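All genes past the 5% FDR and 2-fold numbered 73 in the quasi-likelihood test, 565 in the exact test, 628 in the likelihood ratio test and 487 in DESeq2, and ran from 0 to 1292 when 1 mouse was left out. The exact test called 1292 without mouse 8637, 428 without 9055, 134 without 9056, 272 without 9210 and 486 without 9121. Of the pathway genes 1 passed, against 11, 12 and 10 by those tests and 0 to 17 with a mouse left out (in the order above, 17, 4, 3, 8 and 8 by the exact test, and 15 without mouse 8637 and 3 without mouse 9121 by the quasi-likelihood test). The members that passed both limits ran from 0 to 1 with a mouse left out. The quasi-likelihood test called 963 genes without null mouse 8637, 136 without null mouse 9121 and 0 without any 1 of mice 9055, 9056 and 9210. The cause of these differences between tests and mice was not tested. Scaling by library size alone moved the median of all genes to 0.17 on the log2 scale, that of the members to -0.18, and reversed *Keap1* (0.082) and *G6pdx* (0.087). Under it the medians of the thioredoxin (0.0013) and the heme and iron genes (0.063) were no longer negative, and 73 genes were called higher and 12 lower, against 56 and 17 with TMM. The median of the members was -0.22 without mouse 9056. The other 7 members tested kept their direction in all 19 alternatives, *Gclm* between -1.06 and -0.76 and *Gclc* between -0.74 and -0.49, with adjusted p-values from 3.29e-11 to 0.544 and from 9.28e-05 to 0.544. No paired analysis was possible because the groups share no replicate numbers. With 5 mice, 1 of them unlike the others in *Xist*, the error of each member rests on few animals, and *Slc7a11* was below the depth at which a difference could be seen.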
